A study of Mus musculus with 8 samples.

Results

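Guanylate-binding proteins and immunity-related GTPases were followed in osteoclast precursor (OCP) cells that had been given extracellular peroxiredoxin 1 (PRDX1), the cytokine RANKL, both or neither. The members were 10 of the 25124 genes in the expression table and were taken by symbol: *Gbp2*, *Gbp3*, *Gbp5*, *Gbp6*, *Gbp7*, *Gbp9*, *Irgm1*, *Irgm2*, *Igtp* and *Iigp1*. Of these, 9 had a mean of at least 0.5 FPKM (fragments scaled to transcript length and library size) over the 8 libraries and were tested among 11700 genes, and *Iigp1*, with a mean of 0.483 FPKM, was not tested. The cells were bone marrow macrophages of C57BL/6 mice aged 6 to 8 weeks, per the labels, whereas the culture methods of the study name ICR mice. All 4 groups received macrophage colony-stimulating factor (M-CSF) at 30 ng/ml, a survival factor of macrophages. They were no PRDX1 + no RANKL, PRDX1 + no RANKL (200 nM PRDX1), no PRDX1 + RANKL (100 ng/ml RANKL for 48 h) and PRDX1 + RANKL, with 2 libraries each. PRDX1 is an antioxidant enzyme, and the protein added here was a recombinant, His-tagged product of *E. coli* passed through an endotoxin removal resin. RANKL, the receptor activator of NF-kappa-B ligand, is the signal that turns OCP cells into osteoclasts.

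Guanylate-binding proteins (GBPs) and immunity-related GTPases (IRGs) are large GTPases that cells make in quantity after exposure to interferons, above all interferon gamma. GBPs assemble on the membranes of vacuoles and bacteria, where they break pathogen compartments and help caspase-11 to reach lipopolysaccharide. *Gbp2* and *Gbp5* proteins carry a prenyl lipid anchor. Of the IRGs, *Iigp1* (Irga6) is an effector that coats vacuoles, whereas *Irgm1*, *Irgm2* and *Igtp* (Irgm3) sit on the cell's own membranes and hold the effectors in their inactive, GDP-bound state. Interferon signals reach these genes through transcription factors that bind gamma-activated sequences (GAS) and interferon-stimulated response elements (ISRE), with IRF1 among those that bind the latter.

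Gene positions were those of the mm10 table. *Gbp5* (142496934 to 142522344), *Gbp7* (142530336 to 142550151), *Gbp3* (142560044 to 142573213) and *Gbp2* (142620663 to 142638008) lay on the plus strand of chromosome 3, within 141 kb, with the related *Gbp2b* between *Gbp3* and *Gbp2*. *Gbp9* (105076466 to 105110292) and *Gbp6* (105270702 to 105293699) lay on the minus strand of chromosome 5. *Irgm1* (48865245 to 48871420, minus strand), *Igtp* (58199556 to 58207592, plus strand) and *Irgm2* (58214977 to 58222783, plus strand) lay on chromosome 11. The RefSeq promoter sequences of assembly GRCm38.p6, which is mm10, held 7 of the members. Stretches upstream of their transcription starts are shown for the promoters that held a letter match to an ISRE, so each stretch holds one by choice. They run 5′ to 3′ on the gene's strand, from chr3:142620553-142620662, chr3:142559934-142560043, chr3:142496759-142496933, chr3:142530226-142530335, chr11:48871421-48871530 (minus strand), chr11:58214867-58214976 and chr11:58199446-58199555, and the last base is the base before the start. Capitals mark matches to the ISRE core GAAANNGAAA, on either strand, and to the GAS motif TTCNNNGAA, which reads the same on both strands.
Gbp2: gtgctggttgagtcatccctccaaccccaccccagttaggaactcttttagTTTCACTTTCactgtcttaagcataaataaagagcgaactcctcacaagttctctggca
Gbp3: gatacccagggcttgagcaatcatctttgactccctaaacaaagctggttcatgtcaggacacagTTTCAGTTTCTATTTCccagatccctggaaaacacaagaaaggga
Gbp5: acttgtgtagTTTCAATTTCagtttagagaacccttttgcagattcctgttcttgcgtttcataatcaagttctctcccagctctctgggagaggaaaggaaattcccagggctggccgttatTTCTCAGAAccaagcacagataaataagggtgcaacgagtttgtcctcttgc
Gbp7: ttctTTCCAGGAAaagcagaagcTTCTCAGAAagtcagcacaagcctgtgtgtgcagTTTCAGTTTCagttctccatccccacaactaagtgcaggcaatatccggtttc
Irgm1: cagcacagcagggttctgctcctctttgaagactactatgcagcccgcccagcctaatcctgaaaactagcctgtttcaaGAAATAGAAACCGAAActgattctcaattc
Irgm2: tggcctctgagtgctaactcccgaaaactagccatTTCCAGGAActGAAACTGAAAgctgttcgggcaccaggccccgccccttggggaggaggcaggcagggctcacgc
Igtp: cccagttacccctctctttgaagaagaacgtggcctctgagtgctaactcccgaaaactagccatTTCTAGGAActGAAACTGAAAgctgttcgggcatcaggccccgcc

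The table held 8 promoters of these 7 genes, each covering the 250 bases before and 50 bases after a start, and *Gbp3* had a second one. An ISRE core was found in 7 of the 8, that is, in 1 promoter of each gene and not in the second one of *Gbp3*, whereas 3.44% of all 32851 RefSeq mouse promoters held one. A GAS motif was found in 4 of the 8 (*Gbp5*, *Gbp7*, *Igtp* and *Irgm2*), against 8.3% of all promoters. The kappa-B consensus, the binding motif of NF-kappa-B, occurred in *Gbp5*, from -77 to -68 relative to the start, and in 5.8% of all promoters. In *Gbp3* and in *Irgm1* a pair of ISRE cores overlapped, from -45 to -30 and from -30 to -15. The *Igtp* and *Irgm2* stretches, of genes that lie close together on chromosome 11, were identical at 78 of 80 bases aligned without gaps, and in both the GAS motif began 11 bases before the ISRE core. Distances count from the RefSeq start. For *Gbp7* and *Irgm2* the bases just after that start were not found in a GENCODE transcript of the gene. A match of letters is a description of the sequence and does not show that a factor was bound.

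**Figure D1:**
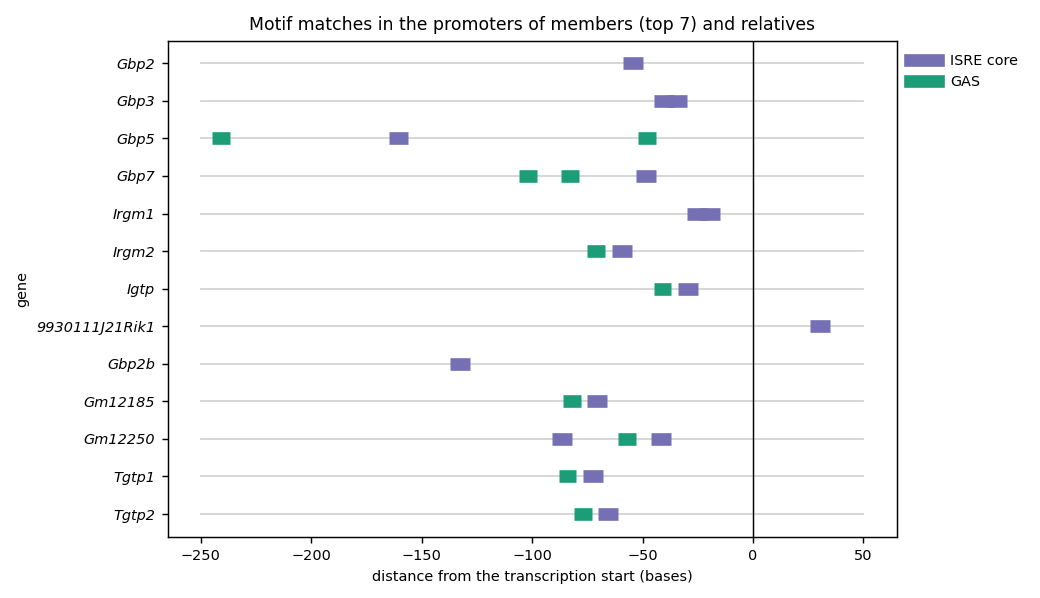
Matches to the ISRE core (purple) and the GAS motif (green) in the promoters of 7 members and of 6 related genes, placed by distance from the transcription start in bases (0, vertical line). The related genes shown are those with an ISRE core, and the other 6 of the 12 relatives with a promoter had none. For *Gbp7*, *Irgm2*, *Tgtp2* and *Gm12250* the bases just after the RefSeq start were not found in a GENCODE transcript of the gene. The promoter drawn for each of the 7 members carries an ISRE core upstream of the start, in *Irgm1* within 30 bases of it and in *Gbp5* at -165, and a GAS motif begins 11 bases before the ISRE core in *Irgm2*, *Igtp*, *Gm12185*, *Tgtp1* and *Tgtp2*.

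The libraries held 27284655 to 46171826 reads, and 15 to 8238 reads fell on a member in a library. Macrophage markers (5 of 5 in the table) summed to 1743 to 1745 FPKM in no PRDX1 + no RANKL, 2011 to 2068 in PRDX1 + no RANKL, 1067 to 1178 in no PRDX1 + RANKL and 1447 to 1485 in PRDX1 + RANKL, so they were higher with PRDX1 in both settings and lower with RANKL. Osteoclast markers (7 of 7) summed to 27.4 to 28.3 FPKM in no PRDX1 + no RANKL, 59.4 to 60.2 in PRDX1 + no RANKL, 1640 to 1752 in no PRDX1 + RANKL and 208 to 217 in PRDX1 + RANKL, so the RANKL groups differed in osteoclast markers. Markers of T cells and NK cells, the usual sources of interferon gamma, summed to at most 0.601 and 0.054 FPKM, and *Cd3e* was at 0 in every library. Summed neutrophil markers (4 of 4) moved with PRDX1, at 3.83 to 6.39 FPKM without and 19.96 to 20.5 with PRDX1 in the absence of RANKL, and 9.42 to 10.1 without and 19.7 to 20.04 with PRDX1 in its presence. Stromal markers (4 of 4) did so too, at 7.17 to 9.88 against 15.9 to 16.2 FPKM without RANKL and 7.05 to 8.69 against 14.0 to 17.9 with it. Dendritic cell markers (4 of 4) were at 0.57 to 0.588 against 1.68 to 1.76 FPKM without RANKL, and at 1.45 to 1.49 against 2.88 to 3.78 with it. B cell markers (4 of 4) were at 0.365 to 0.544 against 1.02 to 1.33 FPKM without RANKL, and at 0.384 to 0.672 against 0.722 to 1.04 with it. The part of these cells in the results for PRDX1 was not tested, and in bulk RNA a change in the number of cells of a type cannot be told apart from a change in RNA per cell.

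The summed level of the 10 members was 106 to 117 FPKM in no PRDX1 + no RANKL, 160 to 164 in PRDX1 + no RANKL, 132 to 145 in no PRDX1 + RANKL and 204 to 205 in PRDX1 + RANKL. These ranges did not overlap, with the lowest sum in cells given neither agent and the highest in cells given both. *Irgm1* alone made up 38.4% to 47.6% of the sum. Per transcript length, *Irgm1*, *Igtp* and *Irgm2* were the most abundant members in all 4 groups, and *Gbp6* and *Iigp1* were the least abundant in no PRDX1 + no RANKL, at 0.449 ± 0.081 and 0.391 ± 0.32 FPKM (SD, n = 2).

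**Figure D2:**
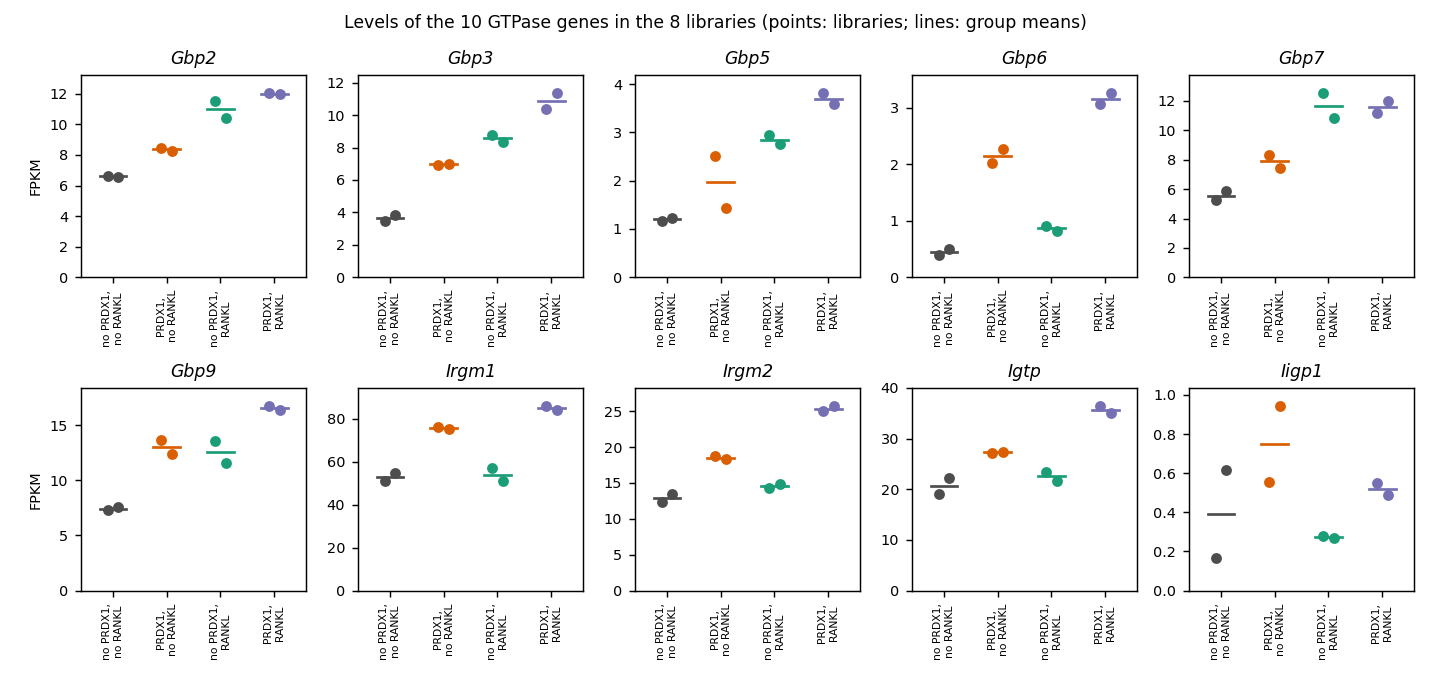
FPKM of the 10 members in the 8 libraries, 1 panel a gene, with the y axis from 0 and its own range in each panel. Points are libraries and lines are group means of 2 libraries: *Gbp6* and the IRGs *Irgm1*, *Irgm2* and *Igtp* are highest in the 2 groups given PRDX1, *Gbp7* and *Gbp2* in the 2 groups given RANKL, and *Iigp1* stays below 1 FPKM.

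The effect of PRDX1 on unstimulated precursors was asked by comparing PRDX1 + no RANKL with no PRDX1 + no RANKL. PRDX1 alone raised *Gbp6*, *Gbp3* and *Gbp9*, by 4.77-, 1.90- and 1.75-fold in mean FPKM. These were 3 of the 9 tested members, where 3.8% of all tested genes were called higher and 1.99% lower. A gene was called at a Benjamini-Hochberg adjusted p under 0.05 in limma and a fold change of at least 1.5, both on the log2(FPKM + 1) scale, which understates the change of genes with low values. *Gbp6* had 0.392 and 0.506 FPKM in no PRDX1 + no RANKL and 2.02 and 2.27 in PRDX1 + no RANKL. The groups were far apart, and the difference was 1.12 on the log2(FPKM + 1) scale (SE 0.0998, adjusted p = 2.99e-05). A GENCODE transcript of *Gbp6*, of 2604 bases where the transcript of the FPKM table has 4303, shared 46.7% of its 100-base windows with other GBP genes, among them *Gbp10*, *Gbp4* and *Gbp8*, so that reads could not be assigned to it with certainty. *Gbp3* had 3.50 and 3.82 FPKM without and 6.92 and 7.01 with PRDX1, again without overlap, and the difference was 0.77 (SE 0.076, adjusted p = 5.37e-05). *Gbp9* had 7.29 and 7.57 FPKM without and 13.6 and 12.3 with PRDX1, a difference of 0.73 (SE 0.082, adjusted p = 0.000136). GENCODE transcripts of *Gbp3* and *Gbp9* shared 0.949% and 0.257% of their windows with other genes, that of *Gbp9* having 4381 bases against 5548 in the table.

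The 3 tested IRGs passed the adjusted p in this comparison, as 29.8% of all tested genes did, and stayed below the fold of 1.5 on that scale. *Irgm1*, a regulatory IRG, had 50.7 and 54.9 FPKM without and 75.9 and 75.1 with PRDX1 (difference 0.51, SE 0.063, adjusted p = 0.000235). *Irgm2* had 12.4 and 13.5 FPKM without and 18.8 and 18.3 with PRDX1 (difference 0.49, SE 0.062, adjusted p = 0.000301). *Igtp* had 19.0 and 22.3 FPKM without and 27.2 and 27.4 with PRDX1 (difference 0.39, SE 0.076, adjusted p = 0.00366). In all 3 genes both PRDX1 libraries lay above both libraries without it, which held for 26.1% of all tested genes. *Gbp7* (difference 0.44, adjusted p = 0.00516) and *Gbp2* (0.30, adjusted p = 0.00910) also passed the p but not the fold. *Gbp5*, whose protein takes part in inflammasome assembly, had 1.17 and 1.23 FPKM without and 2.51 and 1.43 with PRDX1, and its adjusted p was 0.0619. The spread between its PRDX1 libraries, of 237 and 152 reads, was the widest among the tested members in this group relative to its mean, and without PRDX1 + no RANKL replicate 2 *Gbp5* was called, at 0.68 (adjusted p = 0.00332). Without PRDX1 + no RANKL replicate 1 its difference was 0.15 (adjusted p = 0.419), and on the recovered reads it was called, at 0.64 (adjusted p = 0.0312). The median difference of the 9 members was 0.49, and that of all tested genes -0.04.

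In the presence of RANKL, PRDX1 raised the 3 tested IRGs and *Gbp6*. These 4 of 9 members stood against 6.03% of all tested genes called higher and 4.17% called lower. *Irgm2* had 14.2 and 14.9 FPKM in no PRDX1 + RANKL and 25.0 and 25.7 in PRDX1 + RANKL, a difference of 0.76 (SE 0.062, adjusted p = 7.84e-06). *Irgm1* had 57.1 and 50.8 against 85.7 and 83.8 FPKM (0.64, SE 0.063, adjusted p = 2.48e-05). *Igtp* had 23.5 and 21.6 against 36.4 and 35.1 FPKM (0.64, SE 0.076, adjusted p = 9.47e-05). In all 3 IRGs both PRDX1 + RANKL libraries lay above both no PRDX1 + RANKL libraries, as in 27.9% of all tested genes. *Gbp6* had 0.911 and 0.827 FPKM without and 3.07 and 3.26 with PRDX1, a difference of 1.16 (SE 0.0998, adjusted p = 1.10e-05). Without no PRDX1 + RANKL replicate 2, *Gbp6* and *Irgm2* were called, and *Irgm1* (0.56) and *Igtp* (0.58) fell just under the fold of 1.5.

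The other GBPs differed less between the RANKL groups. *Gbp9* went from 13.6 and 11.6 to 16.7 and 16.4 FPKM (0.38, adjusted p = 0.00455) and *Gbp3* from 8.79 and 8.37 to 10.4 and 11.4 (0.31, adjusted p = 0.00845), both below the fold of 1.5. *Gbp5* had 2.94 and 2.76 against 3.82 and 3.58 FPKM (0.29, adjusted p = 0.146), and *Gbp2* 11.6 and 10.4 against 12.1 and 12.0 (0.12, adjusted p = 0.193). The *Gbp2* difference was 0.19 without no PRDX1 + RANKL replicate 1 and 0.051 without replicate 2. *Gbp7* had 12.5 and 10.8 FPKM without and 11.2 and 12.0 with PRDX1, and these values overlapped. Its difference was -0.01, with a 95% interval from -0.21 to 0.19 and an adjusted p of 0.941, and its sign turned under quantile and upper quartile scaling. The median difference of the 9 members was 0.38, against -0.06 for all tested genes.

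**Figure D3:**
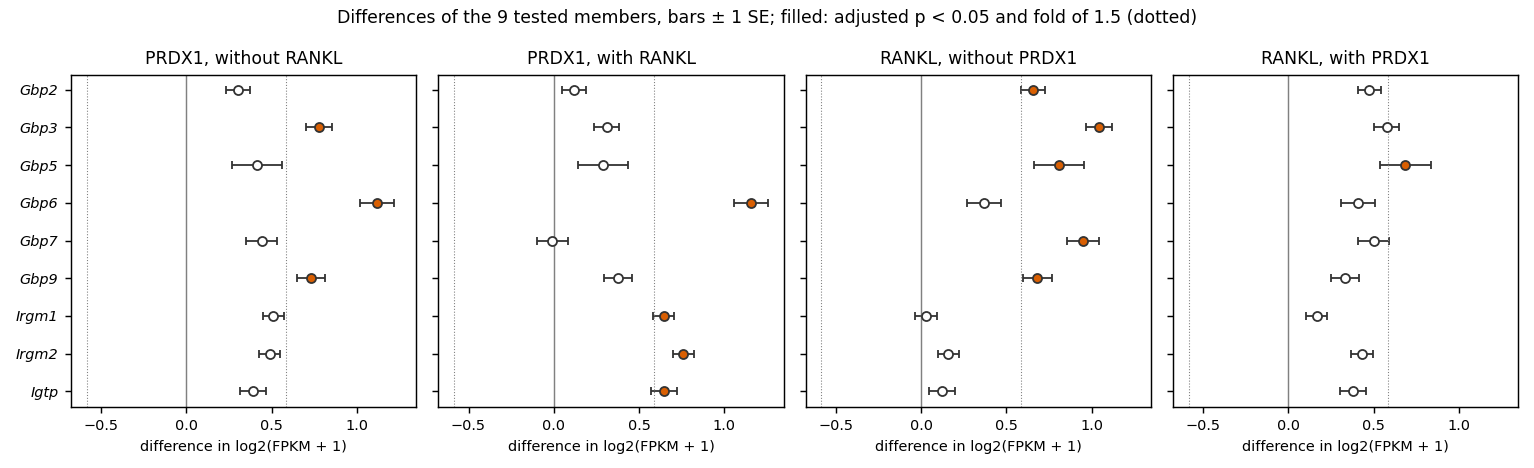
Differences of the 9 tested members in log2(FPKM + 1) with bars of 1 SE from limma, for PRDX1 without and with RANKL and for RANKL without and with PRDX1. Filled points passed an adjusted p of 0.05 and a fold of 1.5 (dotted lines): *Gbp6* is filled for PRDX1 in both settings, the 3 IRGs for PRDX1 with RANKL, and 5 GBPs for RANKL without PRDX1.

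The effect of RANKL alone was read from no PRDX1 + RANKL against no PRDX1 + no RANKL, which shares its control libraries with the first comparison. RANKL raised *Gbp3*, *Gbp7*, *Gbp5*, *Gbp9* and *Gbp2*. These were 5 of the 9 tested members, and 5 of the 6 GBPs, where 11.8% of all tested genes were called higher and 9.96% lower. *Gbp3* had 3.50 and 3.82 FPKM without RANKL and 8.79 and 8.37 with it (1.04, SE 0.076, adjusted p = 1.31e-06). *Gbp7* had 5.25 and 5.87 against 12.5 and 10.8 FPKM (0.95, SE 0.091, adjusted p = 9.75e-06), and *Gbp5* 1.17 and 1.23 against 2.94 and 2.76 (0.81, SE 0.15, adjusted p = 0.000898). The 3 genes, all on chromosome 3, were 2.34-, 2.10- and 2.38-fold higher in mean FPKM. *Gbp9* had 7.29 and 7.57 against 13.6 and 11.6 FPKM (0.68, adjusted p = 5.19e-05), and *Gbp2* 6.62 and 6.58 against 11.6 and 10.4 (0.66, adjusted p = 1.97e-05). *Gbp9* fell under the fold of 1.5 without no PRDX1 + RANKL replicate 1, at 0.58, and *Gbp2* under quantile scaling, at 0.58. *Gbp6* had 0.392 and 0.506 FPKM without and 0.911 and 0.827 with RANKL, a difference of 0.37 (adjusted p = 0.00932) that was called when the pseudocount was 0.1 or when the recovered reads were tested.

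The IRGs differed little with RANKL alone. *Irgm1* had 50.7 and 54.9 FPKM without and 57.1 and 50.8 with RANKL, and these values overlapped. Its difference of 0.03 had a 95% interval from -0.11 to 0.17 and turned sign under quantile and upper quartile scaling. *Igtp* differed by 0.12 (interval -0.05 to 0.29, adjusted p = 0.183), also with overlapping values. Without no PRDX1 + no RANKL replicate 1 the *Igtp* difference was 0.015, and without replicate 2 of that group it was 0.23 (adjusted p = 0.0272). It was 0.065 without no PRDX1 + RANKL replicate 1 and 0.052 under quantile scaling. Both RANKL libraries of *Irgm2* lay above both libraries without RANKL, as in 47.7% of all tested genes. Where 59.9% of all tested genes passed the adjusted p, the *Irgm2* difference was 0.16 (adjusted p = 0.0478). This value was 0.10 without no PRDX1 + no RANKL replicate 1 (adjusted p = 0.268), 0.067 under quantile scaling (adjusted p = 0.363) and 0.097 under upper quartile scaling (adjusted p = 0.198). The median difference of the 9 members was 0.66, and that of all tested genes 0.10. The members' differences ranged from 0.03 for *Irgm1* to 1.04 for *Gbp3*.

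On top of PRDX1, RANKL raised *Gbp5*, from 2.51 and 1.43 to 3.82 and 3.58 FPKM (0.69, SE 0.15, adjusted p = 0.00467). This was 1 of the 9 members, against 4.52% of all tested genes called higher and 3.98% lower, and it rested on PRDX1 + no RANKL replicate 2, without which the difference was 0.42 and not called. *Gbp3* came next, from 6.92 and 7.01 to 10.4 and 11.4 FPKM (0.57, adjusted p = 0.000252). It lay just under the fold of 1.5 and passed it in 3 of the alternatives. *Gbp7* (0.50), *Gbp2* (0.47), *Irgm2* (0.43), *Gbp6* (0.41), *Igtp* (0.38) and *Gbp9* (0.33) passed the adjusted p without the fold, where 40.6% of all tested genes passed that p, and *Irgm1* (0.16, adjusted p = 0.0599) passed neither. The median of the 9 members was 0.43, against 0.07 for all tested genes.

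Given together, PRDX1 and RANKL raised all 9 tested members over no PRDX1 + no RANKL, where 7.5% of all tested genes were called higher and 5.34% lower. The differences ran from 0.67 for *Irgm1* (SE 0.063, adjusted p = 1.46e-05) to 1.52 for *Gbp6* (SE 0.0998, adjusted p = 1.12e-06), with *Gbp3* (1.35), *Gbp5* (1.10) and *Gbp9* (1.06) next. In mean FPKM, *Gbp6* was 7.05-fold, *Gbp5* 3.09-fold and *Gbp3* 2.97-fold higher, and *Irgm1* 1.60-fold. All 9 were called in each of the 14 alternatives. One of these tested the recovered reads, on which 9.77% of all tested genes were called higher and 7.31% lower. The median was 0.94, against 0.03 for all tested genes.

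Whether PRDX1 acted differently with RANKL than without it was tested by the interaction, the PRDX1 difference with RANKL minus that without. In limma 0 of the 9 members reached the adjusted p and the fold of 1.5 together, where 4.5% of all tested genes were called above 0 and 4.35% below 0. At an unadjusted p under 0.05 there were 5, against 34.9% of all tested genes, and the test of the recovered reads called 0 members, with 6.06% of all tested genes above 0 and 5.28% below. *Gbp3* (-0.47, SE 0.11, adjusted p = 0.0116) and *Gbp7* (-0.45, SE 0.13, adjusted p = 0.0311) passed the adjusted p, with a smaller PRDX1 difference in the presence of RANKL. These 2 of 9 were close to the 23.1% of all tested genes that passed it. *Gbp9* (-0.35, adjusted p = 0.0547) and *Irgm2* (0.27, adjusted p = 0.0513) lay on opposite sides of 0 and just missed it, and on the recovered reads both passed it (adjusted p = 0.00748 and 0.0309) short of the fold. The interaction was above 0 in the 3 IRGs, from 0.14 to 0.27, and from -0.47 to 0.04 in the 6 GBPs, where that of *Gbp6* (0.04) turned sign in 4 alternatives.

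*Iigp1*, the effector IRG, is on the plus strand of chromosome 18 (60373616 to 60392629) and held 15 to 101 reads in a library. It had 0.167 and 0.615 FPKM in no PRDX1 + no RANKL and 0.557 and 0.942 in PRDX1 + no RANKL, and these values overlapped. With RANKL it had 0.278 and 0.267 FPKM without PRDX1 and 0.549 and 0.487 with it. Both PRDX1 + RANKL libraries lay above both no PRDX1 + RANKL libraries, as in 27.9% of all tested genes, and below both PRDX1 + no RANKL libraries, as in 27.0%. The libraries of no PRDX1 + no RANKL, with 15 and 78 reads, were the farthest apart for their mean, at 0.391 ± 0.32 FPKM (SD, n = 2).

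Across the 8 libraries the 9 tested members varied together to different degrees. Pearson's r of log2(FPKM + 1) over their 36 pairs ran from 0.399 to 0.981 with a median of 0.851, as a description of libraries that share the same 4 treatments. The genes outside the list whose profile over the 8 libraries was most like the mean standardised profile of the members were *Tctn1* (r = 0.992), *Hvcn1* (0.990), *Ptk2* (0.989), *Rnf149* (0.987) and *Epsti1* (0.987). Among the members, *Gbp9* was closest to that mean (r = 0.982) and *Irgm1* farthest (0.825). *Tctn1*, for instance, had mean levels of 8.38, 11.6, 10.9 and 15.6 FPKM in no PRDX1 + no RANKL, PRDX1 + no RANKL, no PRDX1 + RANKL and PRDX1 + RANKL.

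Related large GTPases included the remaining GBPs, other IRGs, the very large interferon-inducible GTPases and the atlastins. The table held 23 of them, and 15 were tested. PRDX1 alone raised 5 of these 15 (*Gbp10*, *Gbp4*, *Gm4951*, *Tgtp1* and *Tgtp2*), and with RANKL it raised 8, against the 3.8% and 6.03% of all tested genes given above. *Gvin1* and *Gm4070* hold the same reads, and counted once they leave 5 and 7 of 14. On the recovered reads 8 and 9 of the 15 were called, all higher, where 5.21% and 8.25% of all tested genes were called higher and 3.32% and 5.43% lower. *Gbp4* went from a mean of 0.397 FPKM in no PRDX1 + no RANKL to 1.44 with PRDX1 (0.81, adjusted p = 0.000465) and to 1.15 with RANKL (0.62, adjusted p = 0.000722). *Gbp10*, which shared 57.0% of its windows with *Gbp6* and *Gbp8*, had means of 0.171 and 0.357 FPKM in the groups without PRDX1 and 1.32 in each group with it. It passed the filter of 0.5 FPKM only through the groups with PRDX1, so that its call is no support. Without *Gbp10*, PRDX1 raised 4 of 14 relatives without and 7 of 14 with RANKL. That last count still holds *Gvin1* and *Gm4070* separately, both called with RANKL on the same reads. *Tgtp1* and *Tgtp2* (Irgb6) had 80.0% and 80.4% of their windows in common, so that reads of the pair could not be told apart with certainty, and both rose with PRDX1 in the absence of RANKL by 0.69 and 0.60 (adjusted p = 0.00371 and 0.00577). The atlastins *Atl2* and *Atl3*, which shape the endoplasmic reticulum, and *Irgq* were not called by limma or on the recovered reads for either agent in either setting. Short of the fold, *Atl3* was higher in limma with RANKL alone (0.55, adjusted p = 7.09e-05) and with RANKL on top of PRDX1 (0.40, adjusted p = 0.00123). It was lower with PRDX1 in the presence of RANKL (-0.22, adjusted p = 0.0271). Of all tested genes, 59.9%, 40.6% and 42.5% passed the adjusted p in these comparisons. *9930111J21Rik1* and *9930111J21Rik2*, which shared 64.6% and 95.7% of their windows with other genes, were not called with PRDX1 by either test. With RANKL alone their differences were -0.56 (adjusted p = 0.00298) and -0.37 (adjusted p = 0.0190), past the p and short of the fold of 1.5, and on the recovered reads both were called lower. *9930111J21Rik2* also passed the p with RANKL on top of PRDX1 (-0.51, adjusted p = 0.00619) and was called lower there on the recovered reads, on which 5.46% of all tested genes were called lower and 6.32% higher.

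Some IRG relatives fell with RANKL alone. *Gm4951* went from a mean of 4.02 to 0.616 FPKM (-1.65, SE 0.14, adjusted p = 4.42e-06) and *Gm5431* from 11.7 to 3.72 FPKM (-1.44, SE 0.12, adjusted p = 3.51e-06). *Gm5431* shared 19.0% of its windows with other genes, among them *9930111J21Rik1* and *9930111J21Rik2*, and *Gm4951* shared none. In the same comparison *Gbp8* (0.75, adjusted p = 0.000565) and *Gbp4* rose, so 2 of the 15 relatives were called lower and 2 higher, close to the 9.96% and 11.8% of all tested genes. On the recovered reads 6 were called lower and 3 higher, where 12.4% and 14.5% of all tested genes were, and *Tgtp1*, *Tgtp2*, *9930111J21Rik1* and *9930111J21Rik2* joined the lower ones. *Gm12250* (Irgb10), an effector IRG that breaks bacterial membranes, went from 12.1 to 8.82 FPKM, short of the fold (-0.42, adjusted p = 0.00386). With RANKL, PRDX1 raised *Gm4951* to 4.19 FPKM (1.70, adjusted p = 8.71e-06), *Gm5431* to 8.12 (0.97, adjusted p = 0.000138) and *Gm12250* to 18.1 (0.97, adjusted p = 3.04e-05). *Gvin1* and *Gm4070*, which cover the same interval, were also called in that comparison.

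**Figure D4:**
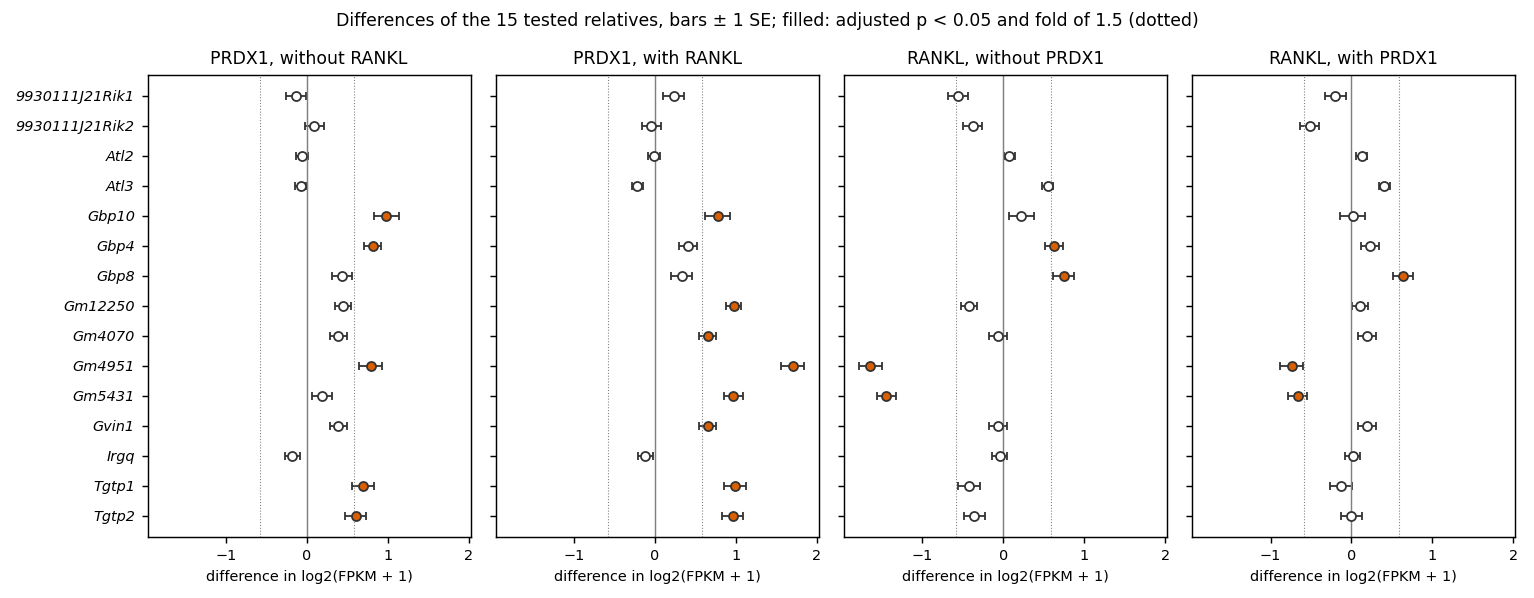
Differences of the 15 tested relatives in log2(FPKM + 1), with bars of 1 SE from limma, for the same 4 comparisons and with points filled as for the members. With RANKL alone *Gm4951* and *Gm5431* lie far below 0 while *Gbp4* and *Gbp8* lie above it, and 8 relatives are filled for PRDX1 with RANKL.

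The interferon ligands that induce these GTPases were at or near 0. Of the 21 ligand genes in the table, 18, among them *Ifng*, had 0 reads in all 8 libraries, which allows up to 3 reads a library, and the others had at most 2 reads in any library. *Ifnb1*, the interferon beta gene, had 0 and 0.062 FPKM in no PRDX1 + no RANKL, 0.083 and 0.074 in PRDX1 + no RANKL, 0 and 0 in no PRDX1 + RANKL and 0.056 and 0 in PRDX1 + RANKL. The cells were taken at 48 h, and ligand RNA at earlier times was not measured.

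Of 8 tested interferon receptors and kinases, 0 were called with PRDX1 in either setting by limma or on the recovered reads, and 5 had an unadjusted p under 0.05 in each, against 39.8% of all tested genes without and 50.2% with RANKL. *Ifngr1*, a chain of the interferon gamma receptor, was lower with PRDX1 by 0.40 without RANKL (adjusted p = 0.000667) and by 0.44 with it (adjusted p = 0.000195), below the fold of 1.5, and rose with RANKL alone by 0.75 (adjusted p = 2.03e-06). *Ifngr2*, the other chain, differed by 0.16 (adjusted p = 0.0419) and -0.03 (adjusted p = 0.686). Of 11 transcription factors, PRDX1 raised 3 without and 5 with RANKL, against 3.8% and 6.03% of all tested genes. *Irf7*, a driver of type I interferon responses, rose by 1.81 (adjusted p = 2.63e-08) and 1.68 (adjusted p = 1.66e-08). *Stat2* rose by 0.62 (adjusted p = 0.000771) and 1.42 (adjusted p = 1.55e-06). *Irf1* differed by 0.17 and 0.24 and was not called in either. *Irf8*, a macrophage factor, was 2.52 lower with RANKL alone (adjusted p = 2.66e-10), and PRDX1 raised it by 1.55 in the presence of RANKL (adjusted p = 2.72e-08).

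Of 8 feedback inhibitors of the pathway, PRDX1 raised 3 without RANKL, namely *Usp18* (0.94), *Socs3* (0.85) and *Socs1* (0.64), and 1 with RANKL, *Usp18* (1.03, adjusted p = 2.99e-06), against 3.8% and 6.03% of all tested genes. RANKL alone raised 3 of the 8, against 11.8% of all tested genes, among them *Socs3* by 1.77 (adjusted p = 1.48e-07) and *Socs1* by 0.98 (adjusted p = 6.39e-05). *Socs1* had an interaction of -0.55 (adjusted p = 0.0449), the same sign as that of *Gbp3* and *Gbp7*.

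The next lists held genes whose proteins work with GBPs. Of 10 caspase and inflammasome partners, PRDX1 raised *Zbp1*, a sensor of Z-form nucleic acids, by 0.97 without RANKL (adjusted p = 4.77e-05) and 1.46 with it (adjusted p = 1.46e-06). That was 1 of the 10 without RANKL, against 3.8% of all tested genes. With RANKL it also raised *Nlrp3* by 0.82 (adjusted p = 5.07e-06), and *Gsdmd*, the pore-forming target of caspases, fell by 0.60 (adjusted p = 1.34e-05), so 2 were called higher and 1 lower, against 6.03% and 4.17%. RANKL alone raised 2 of the 10, *Gsdmd* by 1.95 (adjusted p = 1.07e-09) and *Casp4*, which encodes caspase-11, by 1.43 (adjusted p = 1.48e-07). It lowered 2, *Nlrp3* (-1.39, adjusted p = 3.99e-08) and *Ninj1* (-0.89, adjusted p = 3.85e-07), where 11.8% of all tested genes were called higher and 9.96% lower. The same 4 genes were called for the interaction, *Casp4* at -0.72 (adjusted p = 0.00119) and *Gsdmd* at -0.61 (adjusted p = 0.000341), and *Nlrp3* at 0.97 (adjusted p = 5.01e-05) and *Ninj1* at 0.73 (adjusted p = 0.000126), where 4.35% of all tested genes were called below 0 and 4.5% above it. Of 18 genes of vacuole targeting and autophagy conjugation, PRDX1 raised *Lgals3* (0.85, adjusted p = 5.64e-07) and *Sqstm1* (0.81, adjusted p = 3.20e-06) without RANKL, and *Sqstm1* (0.85, adjusted p = 1.12e-06) with it. These 2 and 1 of 18 stood against 3.8% and 6.03% of all tested genes, so the count with RANKL was close to the share of all genes. Of 7 prenylation genes, whose enzymes add the lipid anchor, 0 were called in any of the 6 comparisons by limma or on the recovered reads, and 1 to 4 of them had an unadjusted p under 0.05 in each, against 34.9% to 64.1% of all tested genes.

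Other interferon targets were set beside the members. Of 16 tested genes known for induction by interferon gamma, PRDX1 raised 4 without and 7 with RANKL, against 3.8% and 6.03% of all tested genes, and the recovered reads gave 7 and 8, against 5.21% and 8.25%. *Slamf8* and *Cxcl11* passed the filter of 0.5 FPKM only through the groups with PRDX1, and without them 4 and 5 of 14 were raised. The medians of the 16 differences were 0.29 and 0.49 on the log2(FPKM + 1) scale. Genes raised in both settings included *Cd274*, the ligand of PD-1 (1.85, adjusted p = 7.38e-08, and 0.68, adjusted p = 2.65e-05), and *Tap1*, a peptide transporter (0.73, adjusted p = 6.95e-05, and 0.74, adjusted p = 3.19e-05). *Fcgr1*, a receptor for IgG that also serves as a macrophage marker here, fell with RANKL alone (-3.59, adjusted p = 5.76e-11), and PRDX1 raised it by 2.46 in the presence of RANKL (adjusted p = 5.04e-09). *Cxcl10*, a chemokine, had the largest rise of the 16 on the log2(FPKM + 1) scale with RANKL alone, from a mean of 16.7 to 108 FPKM (2.65, adjusted p = 2.52e-07). RANKL alone raised 4 and lowered 3 of the 16, with a median of 0.13, where 11.8% of all tested genes were called higher and 9.96% lower. These 16 hold *Cxcl11*, with 0 and 0 FPKM in no PRDX1 + no RANKL and 0.428 and 0.62 in no PRDX1 + RANKL. It passed the filter of 0.5 FPKM only through the groups with RANKL too, so that a rise of *Cxcl11* with RANKL is no support. Of 20 genes known mainly from type I interferon, PRDX1 raised 16 without and 19 with RANKL, with medians of 0.80 and 1.18 on the log2(FPKM + 1) scale, against 0.49 and 0.38 for the members. The lists overlapped, so their counts are not separate, and *Irf7*, told among the transcription factors, is also in this list. *Ifit3* rose by 1.24 (adjusted p = 0.000121) and 1.79 (adjusted p = 5.07e-06). RANKL alone raised 2 and lowered 6 of these 20, against 11.8% and 9.96% of all tested genes, so the number raised was close to the share of all genes. Their median was -0.19, against 0.66 for the members. *Mx1*, an antiviral GTPase, fell by 1.61 in that comparison (adjusted p = 7.12e-07).

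**Figure D5:**
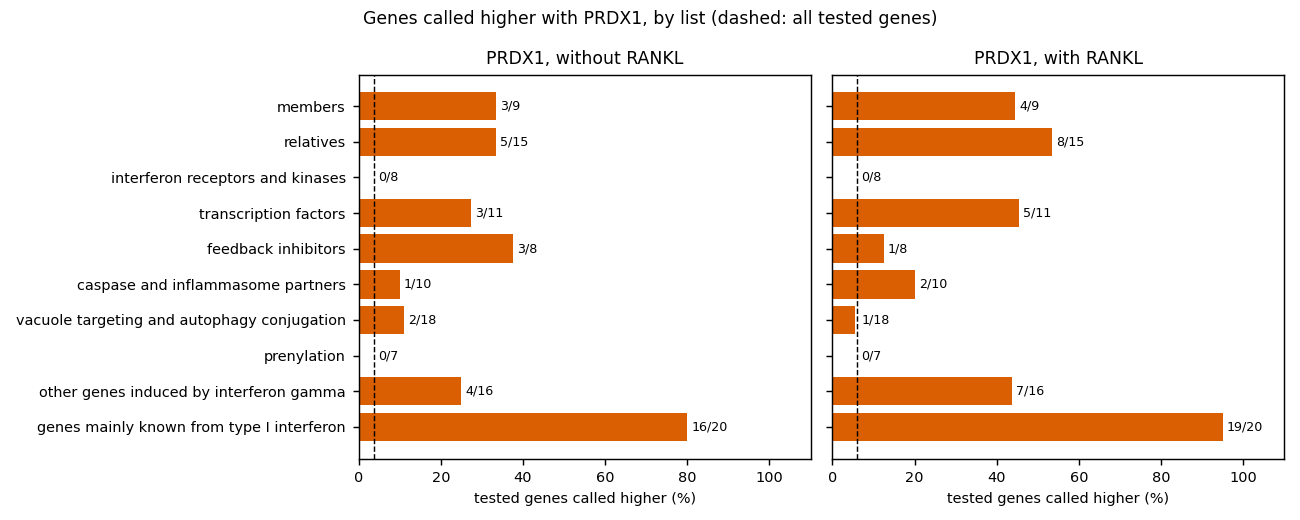
Share of the tested genes of each list that were called higher with PRDX1, in percent, without RANKL (left) and with RANKL (right), with the number called of the number tested beside each bar. Dashed lines mark the share over all tested genes (3.8% and 6.03%): genes known mainly from type I interferon stand at 16 of 20 and 19 of 20, the members at 3 of 9 and 4 of 9, and interferon receptors and kinases at 0 of 8.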

How the data were processed

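RNA-seq of 8 libraries, 2 for each of 4 groups, was analysed. Per the labels and the file headers, the authors used HISAT2 and HOMER with the mm10 build. HOMER counted reads of either strand over RefSeq exons, with 1 transcript for each gene. The deposited unit is FPKM, reads divided by transcript length and library total. FPKM times length came out as whole reads (within 0.25) for 100% of the values checked, which gave library totals of 27284655 to 46171826 reads. Floors for 0 reads cover counting error only, and the 95% intervals are those of limma and cover the spread between libraries. The labels do not say that libraries came from separate cultures, so p-values measure the spread between these libraries. No column of another sample was present (0).

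A single limma model (limma 3.58.1, R 4.3.3, trended variance) of the 4 groups was run on log2(FPKM + 1). Genes averaging under 0.5 FPKM were left out, and p-values were Benjamini-Hochberg adjusted over the other 11700. The code was tested on simulated reads. Alternatives were a pseudocount of 0.1, no filter, quantile and upper quartile scaling, limma-voom on recovered reads, a replicate block and leaving out each library. All 10 members and the 15 tested relatives were named, and in other lists up to 3 called genes with the largest change and those with a role told. Members and lists were chosen with earlier results of these data known, and *Gm7609* was removed from the relatives afterwards because it is not a GTPase. Motifs were searched in RefSeq promoters with Python 3.11.15. Shared windows were 100-base stretches of GENCODE transcripts found also in another gene.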

Additional observations from a re-analysis of the deposited data

Results flagged for a closer look

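A test of the difference between the PRDX1 effects with and without RANKL was passed by 5 of the 24 tested members and relatives, by limma with a Benjamini-Hochberg adjusted p under 0.05 on the log2(FPKM + 1) scale. That share was close to the 23.1% of all tested genes that passed it. For *Gbp3* the PRDX1 difference was 0.77 without and 0.31 with RANKL, a change of -0.47 (adjusted p = 0.0116). For *Gbp7* it was 0.44 and -0.01, a change of -0.45 (adjusted p = 0.0311). In the 3 relatives past this threshold the change was above 0, whereas *Gbp4*, a GBP relative that missed it, had a change of -0.40 (adjusted p = 0.0967) and was called lower on the recovered reads (-1.15, adjusted p = 0.00507). *Gm12250* went from 0.45 to 0.97, a change of 0.52 (adjusted p = 0.0215). *Gm5431* went from 0.19 to 0.97, a change of 0.78 (adjusted p = 0.00883), and *Gm4951* from 0.79 to 1.70, a change of 0.91 (adjusted p = 0.00914). All 3 relatives had their lowest mean in no PRDX1 + RANKL. Groups of 2 libraries were not examined for single outlying samples.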

How the results depend on the processing

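With a replicate block the members called numbered 3 and 4 for PRDX1 without and with RANKL, 5 and 1 for RANKL without and with PRDX1, 9 for both agents and 0 for the interaction, as without the block. Deviations of same-numbered libraries correlated by 0.0085 to 0.096, so the numbers were not taken to pair the libraries. The count for RANKL with PRDX1 went from 1 to 2 with a pseudocount of 0.1 and on recovered reads, where the share of all tested genes called higher went from 4.52% to 6.09% and 6.32%, and it ran from 0 to 2 when single libraries were left out, with 526 to 565 genes called higher in all. The count for PRDX1 with RANKL ran from 2 to 4 when single libraries were left out, with 694 to 749 genes called higher in all. Of the members whose sign turned, none was called: *Gbp7* for PRDX1 with RANKL (0.022 under quantile and 0.036 under upper quartile scaling, -0.11 to 0.089 without single libraries), *Irgm1* for RANKL without PRDX1 (-0.038, -0.037, and -0.053 to 0.11), *Iigp1*, below the filter of the model, without single libraries (-0.090 for both agents and -0.093 to 0.15 for the interaction), and the interactions of *Gbp5* (-0.39 to 0.14) and *Gbp6* (-0.28 with a pseudocount of 0.1, -0.37 on recovered reads, -0.020 to 0.097 without single libraries). The cause was not tested. On recovered reads 610 genes were called higher and 389 lower with PRDX1 alone, against 445 and 233. Where a library is left out, the lone library of its group is assumed to vary like the other groups. Members below 1 FPKM, *Gbp6* and *Iigp1* among them, rest on as few as 15 reads a library, and reads of *Gbp6* may come from its near copies.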
